A study of Homo sapiens with 18 samples.

Results

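The guanylate-binding protein genes GBP1, GBP2, GBP3, GBP4 and GBP5 were followed across 18 libraries of KNS-42 cells, an established glioma cell line that here carried the Cas9 nuclease. They were taken by name, 5 of 58050 gene identifiers in the table. All 5 were found, and 4 of them passed the filter on low values and were tested among 15228 genes. GBP4, with 42 reads in all libraries together, was not.

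Each of the 6 groups had 3 replicate libraries, made from total RNA on day 7 after lentiviral delivery of a guide RNA. The first pair of groups was parental cells, without a DDX3 transgene, that received guide 395 against the endogenous DDX3X gene or the control guide AAVS1, which cuts at a safe-harbour site. The second pair, DDX3Xoe, also overexpressed a codon-optimised DDX3X, and the third pair, DDX3Yoe, a codon-optimised DDX3Y, each with guide 395 or AAVS1. All cells in all groups expressed Cas9. The sources used here do not give the promoter behind the transgenes, the number of clones behind each line or whether replicates were separate cultures, so p-values describe only how far these samples spread, which may be technical.

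Guanylate-binding proteins are large GTPases of the dynamin superfamily and are among the proteins most strongly made in cells exposed to interferons. Interferon gamma acts on them through the kinases JAK1 and JAK2 and on to transcription factors, IRF1 among them, that bind gamma-activated sites (GAS) and interferon-stimulated response elements (ISRE). The proteins hydrolyse GTP, assemble on the surface of cytosolic bacteria and on vacuoles of parasites, and help caspase-4 and inflammasomes to act there. GBP1, GBP2 and GBP5 end in a motif that receives a farnesyl or geranylgeranyl lipid anchor.

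The 5 genes lie in one cluster on the minus strand of chromosome 1 (GENCODE 29, GRCh38). GBP3 spans 89006666 to 89022894, GBP1 89052319 to 89065360, GBP2 89106132 to 89150456, GBP4 89181148 to 89198932 and GBP5 89258950 to 89272804. Promoters from RefSeq (build GRCh38.p14), 250 bases before to 50 after the RefSeq start of transcription, were matched for GBP1, GBP3 and GBP4. They are printed because the windows hold letters of the elements through which interferon is known to act on this family. Capitals mark the ISRE core, searched on both strands as GAAA, any 2 bases and GAAA again, and in GBP3 also the GAS, searched as TTCNNNGAA.
GBP1, chr1:89065159-89065458, minus strand: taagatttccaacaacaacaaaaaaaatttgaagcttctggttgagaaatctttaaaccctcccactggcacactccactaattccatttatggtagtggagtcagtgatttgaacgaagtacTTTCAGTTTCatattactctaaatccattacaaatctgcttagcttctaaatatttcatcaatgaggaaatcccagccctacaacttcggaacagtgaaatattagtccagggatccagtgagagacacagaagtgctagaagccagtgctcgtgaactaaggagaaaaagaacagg
GBP3, chr1:89022817-89023116, minus strand: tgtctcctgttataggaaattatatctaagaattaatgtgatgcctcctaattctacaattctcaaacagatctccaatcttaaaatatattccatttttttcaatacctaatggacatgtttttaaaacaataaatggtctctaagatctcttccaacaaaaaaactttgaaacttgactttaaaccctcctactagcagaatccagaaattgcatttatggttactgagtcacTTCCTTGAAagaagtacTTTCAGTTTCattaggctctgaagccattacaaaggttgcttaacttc
GBP4, chr1:89198893-89199192, minus strand: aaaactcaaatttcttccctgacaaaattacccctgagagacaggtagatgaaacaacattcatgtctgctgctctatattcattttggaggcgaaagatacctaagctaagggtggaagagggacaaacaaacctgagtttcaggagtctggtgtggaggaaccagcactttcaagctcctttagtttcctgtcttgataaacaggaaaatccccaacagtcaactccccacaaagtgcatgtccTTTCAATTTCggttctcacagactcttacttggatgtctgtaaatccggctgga

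All 3 windows held 1 ISRE core, each read on the strand opposite to the gene. GBP1 and GBP3 shared the same letters, TTTCAGTTTC, and GBP4 had TTTCAATTTC. Among 35116 RefSeq promoter windows of the same length, 3.57% held the ISRE core, 7.66% the GAS and 0.439% both, and GBP3 was one of these 154. The GAS of GBP3, TTCCTTGAA, lay just before its ISRE core, with no base shared. A match of letters is a description of the window and not evidence of binding. Elements that depart from the letters searched are not marked. The lack of a GAS match in GBP1 and GBP4 thus does not show that they hold none. GBP2 and GBP5 were not in the promoter table.

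Sequencing depth ranged over 5.67 M to 13.2 M reads per library (median 8.85 M). Values are normalised read counts, that is, reads divided by 1 size factor per library, and because each transcript is read once near its 3' end they do not grow with transcript length. The targeted gene was checked first. DDX3X had 886 ± 58.8 normalised reads with guide 395, against 1811 ± 100.2 with AAVS1, in parental cells, and 757 ± 114 with guide 395, against 1458 ± 90.5 with AAVS1, in DDX3Yoe cells (SD, n = 3 each). Neither pair of groups overlapped. Even so, DDX3X did not pass the limma test across all genes in either kind of cell. Its log2 fold change was -1.03 in parental cells (limma adjusted p 0.08) and -0.95 in DDX3Yoe cells. In DDX3Xoe cells the libraries labelled 395 had 1416, 716 and 578, against 668, 1504 and 1162 in those labelled AAVS1 (replicates 1, 2 and 3), so the replicate 1 libraries ran against their guide labels. Guide effects in DDX3Xoe cells are therefore given with and without both, and these 2 are called by their labels. DDX3Y had 0 reads in all libraries, but reads from a recoded transgene may not be counted under either endogenous gene.

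Of 10 markers of neural and glioma cells, OLIG2 and S100B were at 0 in all libraries and the other 8 were detected, with the stem cell factor SOX2 between 8999 and 28885 normalised reads over all 18. The summed level of that list was 42869 to 46612 with guide 395, against 47320.3 to 76948 with AAVS1, in parental cells, without overlap. Most of that sum was SOX2 and VIM. Among the detected genes of the list only SOX2 (8999 to 15932, against 16149 to 25062) and NES (151 to 269, against 599 to 804) did not overlap between these groups. The share of all genes lower in this way was not computed. Of 10 immune cell markers, 8 stayed below 10 in every library, NKG7 at 0 in all of them, while HLA-DRA, an MHC class II gene that interferon gamma also induces, lay between 2601 and 9186 and the lysosomal protein gene CD68 between 8.87 and 178. The summed immune list, nearly all of it HLA-DRA, was 6165 to 9253 with guide 395, against 4591 to 9201 with AAVS1, in parental cells. Of 8 endothelial markers, CLDN5 was at 0 and the list summed to 24.0 to 43.1 with guide 395, against 38.3 to 50.9 with AAVS1, in parental cells. The part of these levels in the results was not tested, and in bulk RNA fewer cells with a transcript and less transcript per cell cannot be told apart.

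Parental cells with guide 395 had the highest group mean of all 6 groups for each of the 5 genes. The other 5 groups overlapped one another in the order of their means: of 25 neighbouring pairs in the orders of the 5 genes, 4 did not overlap. These were the step from parental cells with guide 395 to the next group for GBP2, GBP3, GBP4 and GBP5. For GBP1 that step overlapped as well. The share of all genes with such a step was not computed. For GBP2, GBP3 and GBP4 a library of a group further down the order still reached the lowest parental library with guide 395. These had 2366 normalised reads (GBP2, DDX3Xoe AAVS1), 996 (GBP3, DDX3Xoe 395) and 4.93 (GBP4, DDX3Xoe AAVS1).

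GBP1, which coats bacteria and binds their lipopolysaccharide, had 2580.2, 4882 and 6405 normalised reads in parental cells with guide 395, against 1094, 1368 and 4012 in parental cells with AAVS1 (replicates 1, 2 and 3). The highest control library exceeded the lowest library with guide 395, so the groups overlapped. In DDX3Xoe cells GBP1 had 1963, 4626 and 2509 with guide 395, against 405, 3017 and 2508 with AAVS1. In DDX3Yoe cells it had 3583, 3781 and 2335 with guide 395, against 3527, 893 and 2750.2 with AAVS1. Both transgenic lines thus had 1 low control library, DDX3Xoe AAVS1 replicate 1 and DDX3Yoe AAVS1 replicate 2, and the other libraries of the pairs overlapped.

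GBP2, a geranylgeranylated member that joins the GBP1 coat and, with GBP5, restrains the protease furin, had 2466, 2073 and 2990.2 in parental cells with guide 395, against 1277, 1907 and 1768 with AAVS1. These 2 groups did not overlap. In DDX3Xoe cells GBP2 had 953, 2212 and 1380.3 with guide 395, against 558, 2366 and 1301 with AAVS1. In DDX3Yoe cells it had 1799, 1904 and 1179 with guide 395, against 1416, 928 and 1378 with AAVS1. Both pairs overlapped.

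GBP3, which supports caspase-4 at the coat, had 808, 972 and 930.3 in parental cells with guide 395, against 233, 263 and 539 with AAVS1, without overlap. In DDX3Xoe cells it had 227, 996 and 283 with guide 395, against 126, 527 and 298 with AAVS1. The DDX3Xoe 395 replicate 2 library, the one with the fewest reads of all, was the single library outside parental cells with guide 395 that reached their level. In DDX3Yoe cells GBP3 had 596, 793 and 348 with guide 395, against 557, 255 and 359 with AAVS1, and the groups overlapped.

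GBP5, a Golgi-associated member that promotes assembly of the NLRP3 inflammasome, had 344, 436 and 526 in parental cells with guide 395, against 79.2, 70.7 and 215 with AAVS1. Every other library in the study lay below the lowest of the 3 parental libraries with guide 395. In DDX3Xoe cells GBP5 had 90.2, 223 and 135 with guide 395, against 34.5, 125 and 215 with AAVS1. In DDX3Yoe cells it had 110.5, 124 and 144 with guide 395, against 139, 25.8 and 173 with AAVS1. Both pairs overlapped.

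GBP4, which also takes part in caspase-4 recruitment, was close to the limit of detection. It gave 9, 5 and 12 reads in parental cells with guide 395, against 2, 0 and 0 with AAVS1. DDX3Xoe cells had 0, 0 and 0 reads with guide 395, against 5, 0 and 0 with AAVS1, and DDX3Yoe cells 0, 2 and 2 with guide 395, against 2, 2 and 1 with AAVS1. Summed over libraries, 26 reads with guide 395 against 2 with AAVS1 in parental cells gave a depth-adjusted ratio of 13.3, with an exact 95% interval of 3.34 to 116 that covers counting error only. In DDX3Yoe cells 4 reads with guide 395 against 5 with AAVS1 gave a ratio of 0.667 (interval 0.132 to 3.1). Without the filter, parental cells gave a log2 fold change of 2.75 (standard error 0.68, limma adjusted p 0.0761).

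The comparison of guide 395 with AAVS1 in parental cells asks what targeting endogenous DDX3X does where no DDX3 transgene is present. All 4 tested genes were higher on average with guide 395, and each was higher in 3 of 3 same-numbered pairs, but none passed the test across all genes. GBP5 averaged 435 ± 91.0 with guide 395 and 122 ± 81.1 with AAVS1 (SD, n = 3 each), a log2 fold change of 2.00 (standard error 0.66, limma adjusted p 0.122). GBP3 averaged 903 ± 85.3 with guide 395 and 345 ± 169 with AAVS1, a log2 fold change of 1.49 (standard error 0.54, limma adjusted p 0.158). For GBP1 the means were 4623 ± 1926 with guide 395 and 2158 ± 1611 with AAVS1, a log2 fold change of 1.25 (standard error 0.67, limma adjusted p 0.364). GBP2 averaged 2509.7 ± 460.3 with guide 395 and 1651 ± 331 with AAVS1, a log2 fold change of 0.61 (standard error 0.41, limma adjusted p 0.476).

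Fold changes are on the scale of log2(value + 1), and a call required an adjusted p (Benjamini-Hochberg, over all genes tested) under 0.05. So 0 of 4 genes were called in parental cells, where 1.78% of all genes tested were, and 2 of 4, GBP3 and GBP5, had an unadjusted p under 0.05, as 16.9% of all genes did. Groups did not overlap for 3 of 4, where 10.7% of all genes had every library with guide 395 above every library with AAVS1. The 95% intervals of the log2 fold change were 0.61 to 3.39 for GBP5, 0.35 to 2.62 for GBP3, -0.16 to 2.66 for GBP1 and -0.25 to 1.47 for GBP2. The median over the 4 was 1.37, and over all genes 0.017. The 4 genes had at least 25.8 normalised reads in every library of every group, so passing the filter of 10 did not depend on guide 395.

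The calls depended on how replicate numbers were treated. Same-numbered parental libraries deviated together, and in a fit with a replicate block within each cell line GBP3 and GBP5 passed (limma adjusted p 0.0281 and 0.0388), whereas GBP1 and GBP2 did not (0.123 and 0.194). In that fit 4.84% of all genes were called. With 1 block shared by all cell lines none of the 4 passed (GBP5 0.0566, GBP3 0.1), where 4.45% of all genes did. On recovered reads, DESeq2 called GBP5 (log2 fold change 1.83, adjusted p 0.0456), as it called 6.09% of all genes to which it gave an adjusted p. By edgeR none of the 4 was called (GBP5 adjusted p 0.132), and 1.6% of all genes were. Leaving out 1 library in turn kept all 4 genes higher and uncalled, with the log2 fold change of GBP5 between 1.71 and 2.5 and that of GBP1 between 0.88 and 1.82.

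In DDX3Xoe cells the same guide was compared while a DDX3X transgene was present. The log2 fold change was 0.96 for GBP1, 0.25 for GBP2, 0.56 for GBP3 and 0.51 for GBP5, each with a limma adjusted p of 1.0, and all 4 pairs of groups overlapped, where 1.83% of all genes were higher in every library with guide 395. No gene was called, 0.0% of all genes were, 0 of 4 had an unadjusted p under 0.05 (315 of 15228 genes, 2.07%), and neither edgeR nor DESeq2 called one of the 4. Without both replicate 1 libraries labelled DDX3Xoe the log2 fold changes were 0.31, -0.01, 0.42 and 0.09 in the same order. Without the library labelled AAVS1 replicate 1 alone they were as low as 0.04 for GBP1, -0.30 for GBP2 and -0.23 for GBP5, and without the library labelled 395 replicate 2 that of GBP3 was -0.10.

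For DDX3Yoe cells the question was the same with the Y-linked paralogue. The log2 fold change was 0.62 for GBP1, 0.39 for GBP2, 0.56 for GBP3 and 0.54 for GBP5, again with limma adjusted p of 1.0 and overlapping groups, where 3.8% of all genes were higher in every library with guide 395. Here too 0.0% of all genes were called, 0 of 4 had an unadjusted p under 0.05 (153 genes, 1.0%), and edgeR and DESeq2 called none of the 4. GBP5 was higher with guide 395 in 1 of 3 same-numbered pairs and the others in 2 of 3. Without DDX3Yoe AAVS1 replicate 2 the log2 fold change was 0.02 for GBP1 and -0.30 for GBP5.

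**Figure D1:**
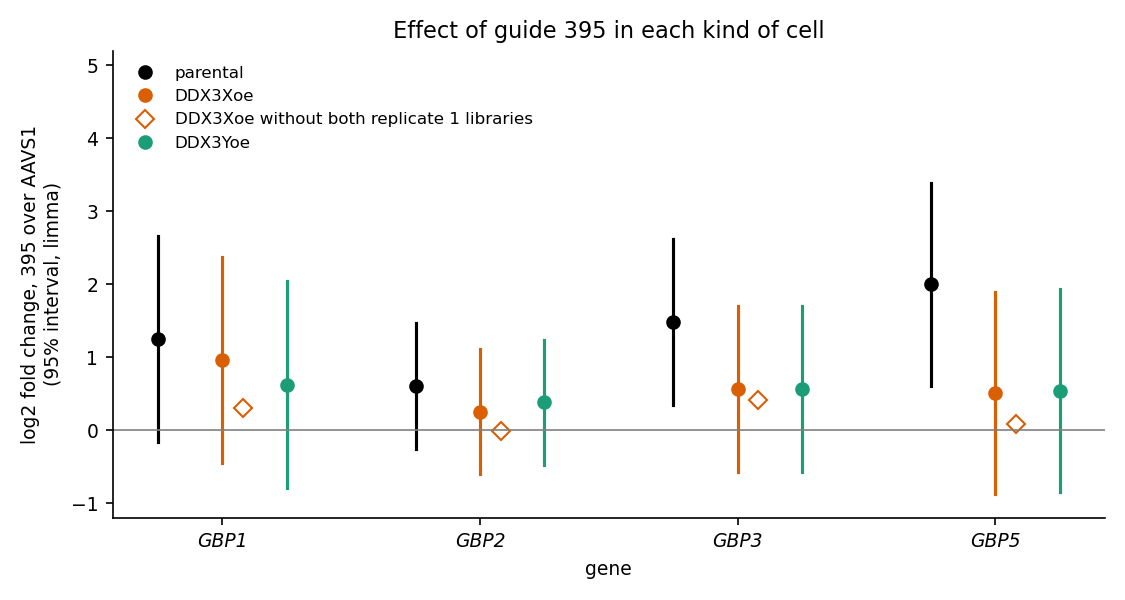
Log2 fold change of guide 395 over AAVS1 with its 95% interval (limma) for 4 genes in parental, DDX3Xoe and DDX3Yoe cells; open diamonds leave out both replicate 1 libraries labelled DDX3Xoe. The parental value is the highest for each gene, the intervals of the 3 kinds of cell overlap, and the parental intervals of GBP3 and GBP5 lie above 0.

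Whether the guide effect differed between kinds of cell was tested directly. The effect in DDX3Xoe minus that in parental cells was -0.29 for GBP1, -0.36 for GBP2, -0.92 for GBP3 and -1.49 for GBP5 on the log2 scale, with limma adjusted p between 0.723 and 0.953. Without both replicate 1 libraries labelled DDX3Xoe it was -0.94, -0.61, -1.07 and -1.91 in the same order, again not past the threshold. Of all genes 7 were called, 0.046%. For DDX3Yoe minus parental cells the differences were -0.63, -0.22, -0.92 and -1.45 in the same order (limma adjusted p 1.0 each, 0.0% of all genes called). Both comparisons use the same parental libraries. The 95% interval for GBP5 was -3.46 to 0.48 in DDX3Xoe cells and -3.42 to 0.52 in DDX3Yoe cells. Both include 0. Between the transgenic lines the difference, DDX3Yoe minus DDX3Xoe, was -0.34 for GBP1, 0.13 for GBP2, 0.00 for GBP3 and 0.03 for GBP5, with adjusted p of 1.0, 0.0% of genes called and an interval for GBP5 of -1.94 to 2.00. Without the same 2 libraries it was 0.31, 0.39, 0.14 and 0.46. No gene of the 4 had an unadjusted p under 0.05 in these 3 comparisons, and edgeR and DESeq2 called none.

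Under guide 395 both transgenic lines were compared with parental cells. All 4 tested genes were lower on average in both lines, and none passed. In DDX3Xoe cells the log2 fold change was -1.61 for GBP5 (149 ± 67.5, against 435 ± 91.0 in parental cells), -1.17 for GBP3, -0.80 for GBP2 and -0.61 for GBP1, with limma adjusted p of 0.214, 0.269, 0.319 and 0.666. This compares with 2.0% of all genes called. Without both replicate 1 libraries labelled DDX3Xoe the values were -1.30 for GBP5, -0.76 for GBP3, -0.51 for GBP2 and -0.34 for GBP1, none past the threshold, where 0.637% of all genes were called. With all libraries GBP5 alone did not overlap, lower in every DDX3Xoe library, as 13.4% of all genes were, and GBP3 and GBP5 had an unadjusted p under 0.05, as 17.6% of all genes did.

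In DDX3Yoe cells with guide 395 the log2 fold change over parental cells was -1.76 for GBP5 (126 ± 17.1, against 435 ± 91.0 in parental cells), -0.72 for GBP3, -0.64 for GBP2 and -0.45 for GBP1. The limma adjusted p were 0.254, 0.576, 0.506 and 0.807, where 0.204% of all genes were called, and GBP5 alone had an unadjusted p under 0.05. GBP2, GBP3 and GBP5 were lower in every DDX3Yoe library than in every parental library, as 14.0% of all genes were. GBP5 passed in both lines when only the 2 groups compared entered the fit (limma adjusted p 0.0436 in DDX3Xoe and 0.0127 in DDX3Yoe cells), where 1.41% and 1.29% of all genes were called in these 2 lines. With all groups in the fit, edgeR and DESeq2 called none of the 4 in either line. The 2 lines share the parental libraries, and those parental libraries also enter the guide comparison above.

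With AAVS1 no difference between a transgenic line and parental cells passed for these genes, and the intervals were wide. The log2 fold change of DDX3Xoe over parental cells was -0.32 for GBP1, -0.44 for GBP2, -0.24 for GBP3 and -0.12 for GBP5, and all 4 turned positive (0.60, 0.11, 0.30 and 0.61) without both replicate 1 libraries labelled DDX3Xoe. For DDX3Yoe over parental cells it was 0.18, -0.42, 0.21 and -0.31 in the same order. Every pair of groups overlapped, no gene of the 4 had an unadjusted p under 0.05 or was called by limma, edgeR or DESeq2, and 0.0% of all genes were called by limma. The 95% intervals for GBP5 were -1.52 to 1.27 in DDX3Xoe and -1.70 to 1.08 in DDX3Yoe cells.

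**Figure D2:**
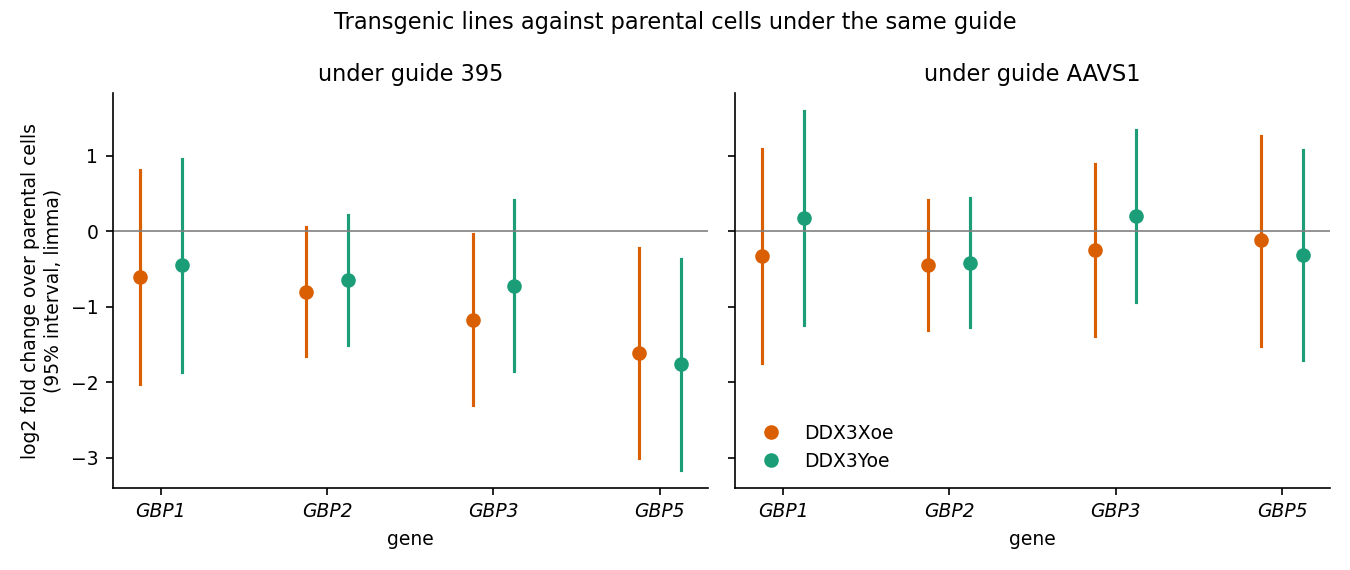
Log2 fold change of DDX3Xoe and DDX3Yoe cells over parental cells with its 95% interval (limma), under guide 395 (left) and AAVS1 (right). Under guide 395 all 8 values are below 0, with GBP5 the lowest in both lines. The intervals there lie below 0 only for GBP3 and GBP5 in DDX3Xoe cells and for GBP5 in DDX3Yoe cells. Under AAVS1 all intervals span 0.

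Genes of interferon signalling, with its inhibitors and the MHC transactivators NLRC5 and CIITA among them, were summarised as a list of 22. Of these 19 were tested. In parental cells with guide 395, 1 was called higher and 0 lower, where 1.78% of all genes were called in either direction. The median log2 fold change was 0.37, against 0.017 over all genes. The called gene was JAK2, the kinase of the interferon gamma receptor, with 739, 602 and 544 normalised reads with guide 395, against 142, 217 and 234 with AAVS1. The log2 fold change of JAK2 was 1.69 ± 0.33 (standard error; limma adjusted p 0.0173), and the call was lost on leaving out any 1 of the 3 parental libraries with guide 395, or parental AAVS1 replicate 1 or 2 (adjusted p up to 0.0737). JAK2 was also lower in DDX3Xoe than in parental cells with guide 395 (144 ± 37.7, against 629 ± 100.1 in parental cells; log2 fold change -2.15, limma adjusted p 0.00425), a call kept whichever library was left out and without both replicate 1 libraries labelled DDX3Xoe (-1.91, adjusted p 0.0225). In DDX3Yoe cells with guide 395 it had 193 ± 44.6, against the same parental libraries (log2 fold change -1.71, limma adjusted p 0.0459), and that call was lost in 11 of 18 fits that left out 1 library and with edgeR (adjusted p 0.0552). The difference in the guide effect on JAK2 did not pass between DDX3Xoe and parental cells (-1.86, limma adjusted p 0.244) or between DDX3Yoe and parental cells (-1.51, adjusted p 0.896). DESeq2 called the first of these (adjusted p 0.0376), as it did 0.565% of all genes.

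The others on that list did not pass in the limma fit of 6 group means. NLRC5, the transactivator of MHC class I genes, had 804, 571 and 562 normalised reads with guide 395, against 195, 251 and 286 with AAVS1, in parental cells. These did not overlap, and limma put the difference at 1.40 on the log2 scale with an adjusted p of 0.111. NLRC5 passed with the replicate block within each cell line (limma adjusted p 0.0437), where 4.84% of all genes did. It also passed by DESeq2 (adjusted p 0.0387), where 6.09% did. The interferon alpha and beta receptor chain gene IFNAR1 differed by -0.45 on that scale, with an adjusted p of 0.234 (limma). IFNG had 0 reads in all libraries. IFNB1, the interferon beta gene, was too low to test, with 73.0, 0.984 and 0.0 normalised reads with guide 395, against 15.4, 0.0 and 0.0 with AAVS1, in parental cells, so nearly all of its reads came from replicate 1. In the 2 comparisons of transgenic lines with parental cells under guide 395, 1 gene of this list was called lower, JAK2, and 0 higher, where 2.0% of all genes were called in DDX3Xoe and 0.204% in DDX3Yoe cells, and in the other 7 comparisons none was called.

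Of 14 related GTPases 9 were tested and none was called in any comparison in the limma fit of 6 group means. In parental cells with guide 395 the 4 with the smallest p were the antiviral dynamin-like genes MX2 (log2 fold change 3.64, limma adjusted p 0.0622) and MX1 (2.66, 0.0686), RNF213 (1.70, 0.0683), a giant ring-finger ATPase, and the pseudogene GBP1P1 (3.75, 0.138). All 4 passed without both replicate 1 libraries labelled DDX3Xoe (limma adjusted p 0.0284 for MX2 and RNF213, 0.0447 for MX1 and 0.0404 for GBP1P1), with the same parental values and fold changes, where 2.42% of all genes passed. All 4 also passed with the replicate block within each cell line (limma adjusted p between 0.00443 and 0.0281), where 4.84% of all genes did. GBP1P1 had 305, 291 and 350.4 normalised reads with guide 395, against 9.4, 7.44 and 146 with AAVS1. Reads can be split between close copies: 8.98% of 50-base stretches in the last 500 bases of GBP1P1 transcripts also occur in GBP1, 2.89% of those of GBP3 in GBP1, and none in GBP1, GBP2, GBP4 or GBP5. GBP7, which shares 34.3% with GBP2, had 0 reads.

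Of 14 genes for prenylation and effector partners 13 were tested and none was called in any comparison in the limma fit of 6 group means. CASP1, the inflammasome protease, had a log2 fold change of 1.90 in parental cells with guide 395 (731 ± 394, against 204 ± 110.0 with AAVS1; limma adjusted p 0.0825). CASP1 passed with the replicate block within each cell line (limma adjusted p 0.0483), where 4.84% of all genes did. It also passed by DESeq2 (adjusted p 0.022), where 6.09% did. The pore-forming GSDMD had 0.83 (adjusted p 0.145), the antibody receptor TRIM21 1.79 (0.167) and PYCARD, the adaptor that links sensors to caspase-1, 1.70 (0.31). The prenylation enzymes FNTA, FNTB and PGGT1B, which attach the lipid anchors, had log2 fold changes of -0.28, -0.29 and -0.30 with adjusted p between 0.662 and 0.755. In DDX3Xoe cells with guide 395 CASP1 had a log2 fold change of -1.90 over parental cells (limma adjusted p 0.0847), and in DDX3Yoe cells -1.78 (0.168). DESeq2 called both (adjusted p 0.0209 and 0.0401), as it did 5.28% of all genes in DDX3Xoe and 2.75% in DDX3Yoe cells. With the replicate block within each cell line CASP1 passed in DDX3Xoe cells (limma adjusted p 0.0443, where 5.45% of all genes did), and with the block shared by all lines as well (0.0489, where 4.75% did).

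**Figure D3:**
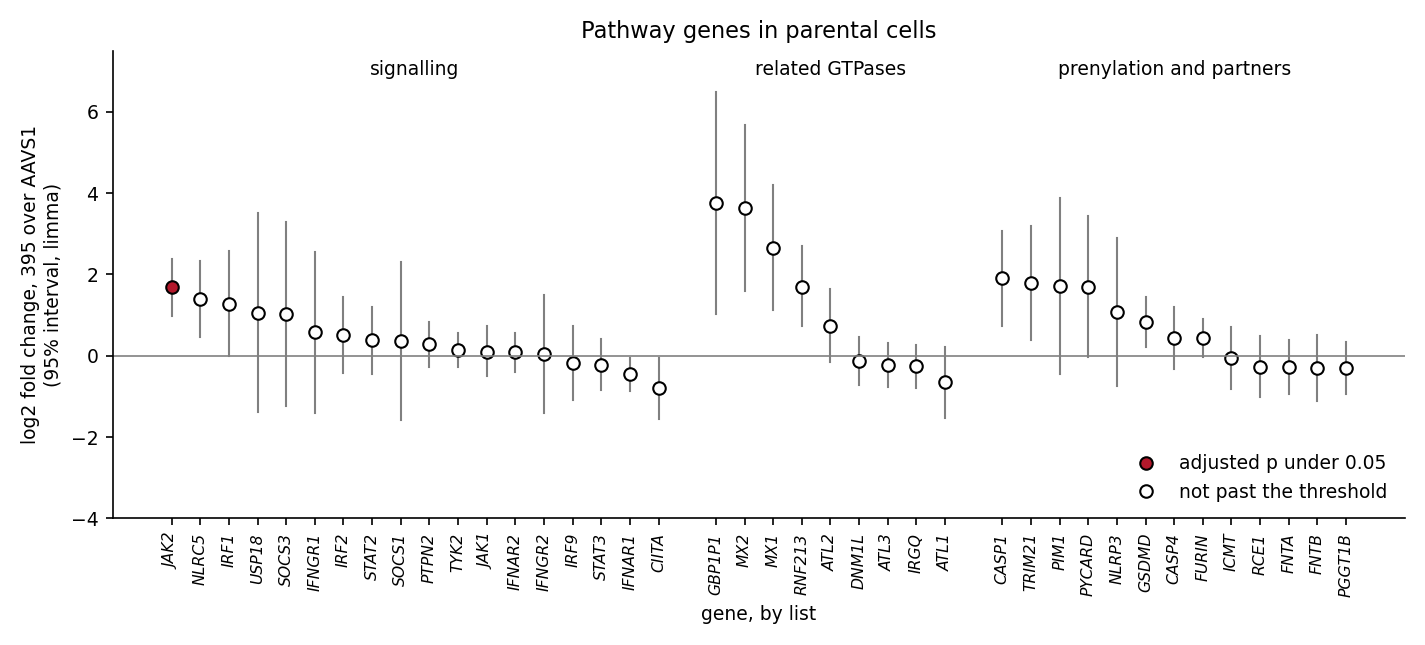
Log2 fold change of guide 395 over AAVS1 in parental cells with its 95% interval (limma) for tested genes of the 3 lists, 1 signalling gene left out, ordered by value within each list. JAK2, filled, is the 1 gene with an adjusted p under 0.05, and GBP1P1, MX2 and MX1 have the largest values.

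The 4 tested genes varied together from library to library. Pearson's r of log2(value + 1) over 18 libraries lay between 0.75 (GBP2 and GBP5) and 0.88 (GBP1 and GBP3), and between 0.63 and 0.89 after the group means were taken out, so the genes also varied together among replicates of a group. These are descriptions, and the libraries share cell line, depth differences and guide groups. The spread between replicates on the log2 scale was an SD of 0.97 for GBP1, 0.94 for GBP5, 0.77 for GBP3 and 0.56 for GBP2, against a median of 0.51 over all genes tested. GBP1 and GBP5 were more variable than 83.2% and 81.9% of genes. For DDX3X and the 4 genes r lay between -0.24 and 0.01 over the 18 libraries, and between 0.08 and 0.32 after the group means were taken out.

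**Figure D4:**
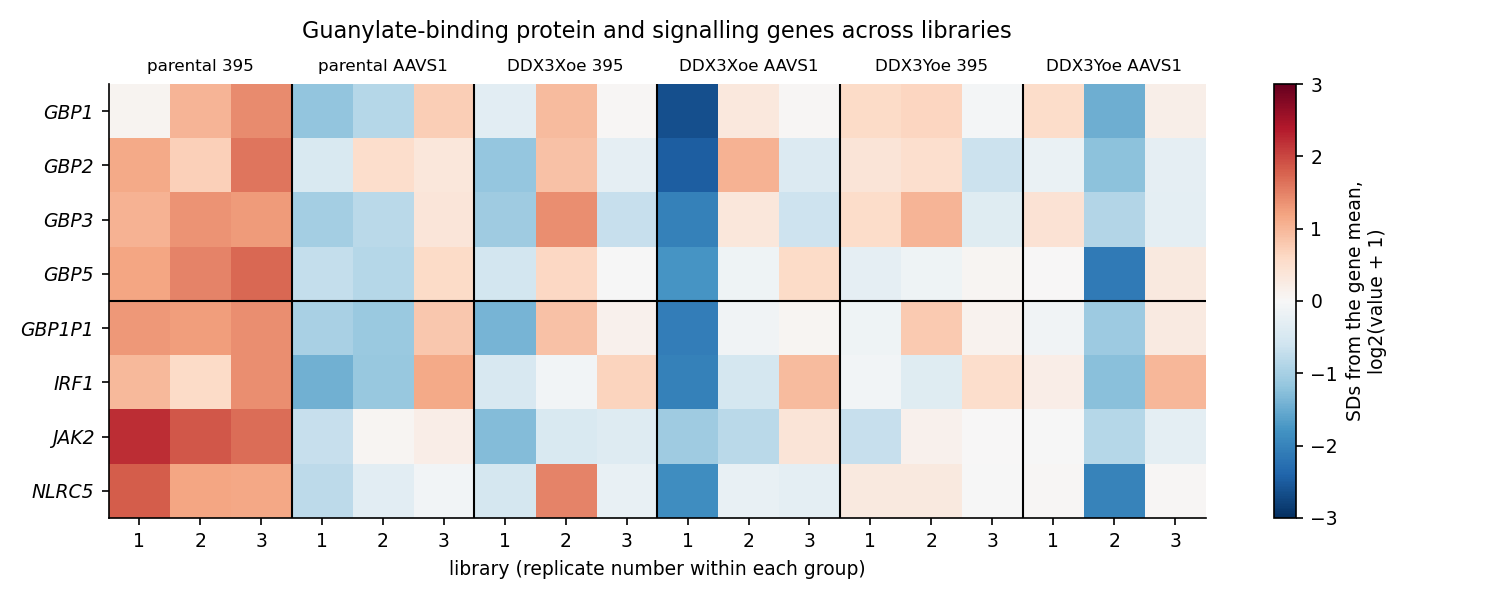
Each cell shows how many SDs a library's log2(value + 1) lies from that gene's mean over 18 libraries, for 4 guanylate-binding protein genes, GBP1P1, IRF1, JAK2 and NLRC5. The 3 parental libraries with guide 395 are above the mean in each row, barely so for GBP1 in replicate 1, and DDX3Xoe AAVS1 replicate 1 and DDX3Yoe AAVS1 replicate 2 hold the darkest blue cells.

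The genes whose pattern over the 18 libraries was most like the mean of the 4 were SP100 (r = 0.967), SP110 (0.964), DDX58 (0.964), SAMD9 (0.959), TNFSF10 (0.958), BATF2 (0.958), PSMB9 (0.958), C19orf66 (0.953), TMEM229B (0.953) and XAF1 (0.948). In parental cells with guide 395 their log2 fold changes lay between 1.23 and 3.10 and none passed (limma adjusted p between 0.0628 and 0.252). With the replicate block within each cell line 8 of the 10 passed (limma adjusted p between 0.0139 and 0.0714 over the 10), where 4.84% of all genes did. With the block shared by all lines 1 passed (TNFSF10), where 4.45% of all genes did, and with edgeR 0, where 1.6% did. DESeq2 called 4 of the 10, where it called 6.09% of all genes. Without both replicate 1 libraries labelled DDX3Xoe 4 passed, where 2.42% of all genes did. The 10 genes were picked for likeness to the 4 over the same libraries, so their fold changes and calls are no separate support. The nearest single gene was DDX58, the RNA sensor RIG-I, for GBP1 (r = 0.966), UBE2L6, an enzyme of ISG15 conjugation, for GBP2 (0.926), IFIH1, the RNA sensor MDA5, for GBP3 (0.947) and BATF2 for GBP5 (0.963). No guanylate-binding protein gene was the nearest to another of them. The best such rank was 28, held by GBP3 among the genes most like GBP1 and among those most like GBP2.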

How the data were processed

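Sequencing libraries of the 3' ends of polyadenylated transcripts were made from total RNA, per the labels' protocols. The deposited signal consists of counts per gene scaled by the authors with a single size factor for each library. The values show this, since division by the lowest value above 0 returned whole numbers of reads for 100.0% of entries (tolerance 0.01) in each of 18 libraries. Tools listed in the submitters' processing notes, with no roles, are featureCounts 1.5.1, limma, RSEM 1.3.0 and STAR 2.5.2b, and the build is GRCh38. Which annotation and which strand option were used for counting is not given in the sources used here. GENCODE 29 held 57446 of 58050 identifiers. The exact interval of a ratio of reads covers counting error only, and the limma intervals rest on the spread between libraries.

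Values were tested as log2(value + 1) with limma 3.58.1 (R 4.3.3), 6 group means over 18 libraries, an intensity trend and Benjamini-Hochberg adjustment over 15228 genes with at least 10 in at least 3 libraries. There were 10 comparisons. Alternatives were other pseudocounts and filters, other scalings, no trend, the compared groups alone, a replicate block, leaving out libraries, and edgeR 4.0.16 and DESeq2 1.42.0 on recovered counts. The fits were tested on simulated data. The 5 genes, the gene lists and the tests were chosen with earlier results of these data known. Named genes were the 5, up to 4 genes of each list with the smallest p, the 10 genes most correlated with the mean profile, the nearest gene to each, and DDX3X and DDX3Y; the prenylation enzymes, IFNG, IFNB1 and GBP7 were added by role after their values were seen. Some genes that the rule names are not reported here.

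Chi-square per degree of freedom between replicates was 21.98 to 154.39, so no pair was 1 library deposited more than once. Deviations from group means correlated between same-numbered parental libraries at 0.57, 0.201 and 0.28, all above 0.1, and the numbers were taken to pair them. In DDX3Xoe cells (0.231, -0.028 and 0.3) and DDX3Yoe cells (0.075, 0.114 and 0.238) they were not. The main fit, of group means alone, does not use this pairing. The block within each cell line pairs libraries in every line, and no fit paired parental libraries alone. What a replicate number marks is not given in the labels.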

Additional observations from a re-analysis of the deposited data

How the results depend on the processing

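Of 1240 log2 fold changes of the 4 tested genes under alternatives, 1177 kept their direction and side of the threshold, 5 passed it and 58 turned round. With the replicate block within each cell line 2 of the 5 genes were called in parental cells with guide 395 (GBP3 and GBP5), and with DESeq2 1 (GBP5); the block shared by all lines called 0, and neither block changed another call of the 5 genes. Between DDX3Xoe and parental cells with guide 395, 1 gene was called with no filter (GBP4, limma adjusted p 0.0373, where 0.774% of all genes were called) and 1 in the compared groups alone (GBP5), and between DDX3Yoe and parental cells with guide 395, 1 in the compared groups alone (GBP5). Among the related GTPases, RNF213 was called in DDX3Xoe over parental cells with guide 395 with the block within each cell line (limma adjusted p 0.0223). In that fit 5.45% of all genes were called. In parental cells with guide 395 MX1, MX2 and RNF213 were called with DESeq2, where 6.09% of all genes were. MX2 and RNF213 were called with the shared block, where 4.45% were. MX1 and MX2 were called in the compared groups alone (66 genes higher and 17 lower of all 15228). MX2 was called with a pseudocount of 5 (204 higher and 133 lower) and RNF213 with quantile normalisation (183 higher and 184 lower). Leaving out 1 library gave a call for MX1, MX2 or RNF213 in some fits. In the compared groups alone MX2 was called in both lines with guide 395 and GBP1P1 in DDX3Yoe cells. There 1.41% of all genes were called in DDX3Xoe and 1.29% in DDX3Yoe cells. The JAK2 call in DDX3Yoe cells was also lost with median-centring (adjusted p 0.0642) and with no intensity trend (0.0706). The cause was not tested.

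Without both replicate 1 libraries labelled DDX3Xoe, the log2 fold change of GBP2 for guide 395 in DDX3Xoe cells was -0.01, the GBP1 guide effect in DDX3Yoe minus DDX3Xoe cells was 0.31, and DDX3Xoe over parental cells with AAVS1 was 0.60, 0.11, 0.30 and 0.61 for GBP1, GBP2, GBP3 and GBP5. With all libraries kept, DDX3Xoe over parental cells with AAVS1 was 0.03 for GBP5 with edgeR and with DESeq2. Also with all libraries, the guide effect on GBP3 in DDX3Yoe minus DDX3Xoe cells was -0.09 with edgeR, DESeq2 and quantile normalisation. It was -0.02 with median-centring and -0.00 with a pseudocount of 0.1. For GBP5 that difference was -0.09 with edgeR and -0.10 with DESeq2.

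Leaving out 1 library turned 17 uncalled values round. For guide 395 in DDX3Xoe cells the range was -0.30 to 0.74 for GBP2, -0.10 to 1.04 for GBP3 and -0.23 to 1.08 for GBP5, and in DDX3Yoe cells -0.30 to 1.05 for GBP5. For the guide effect in DDX3Xoe minus parental cells it was -1.21 to 0.24 for GBP1 and -0.91 to 0.14 for GBP2, and in DDX3Yoe minus DDX3Xoe cells -0.94 to 0.58, -0.36 to 0.68, -0.48 to 0.66 and -0.81 to 0.77 for GBP1, GBP2, GBP3 and GBP5. With AAVS1, DDX3Xoe over parental cells ranged over -0.85 to 0.60, -0.93 to 0.11, -0.72 to 0.30 and -0.69 to 0.61 for the same 4 genes, and DDX3Yoe over parental cells over -0.21 to 0.78 for GBP1, -0.08 to 0.58 for GBP3 and -0.81 to 0.54 for GBP5. No direction turned in parental cells with guide 395 or in either line against parental cells with guide 395. At this depth GBP4 gave at most 12 reads in a library, so its differences rest on single reads in most groups.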
